A study of Mus musculus with 24 samples.

Results

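The transcripts described here are 7 RNAs encoded by mtDNA: the 2 ribosomal RNAs mt-Rnr1 and mt-Rnr2, the mRNAs mt-Nd1, mt-Nd2, mt-Nd4 and mt-Nd5 for subunits of respiratory complex I, and mt-Cytb for cytochrome b of complex III. They were chosen by name as genes of the mitochondrial chromosome and are 7 of 55414 genes in the count table. Conplastic mice carry one nuclear genome with mtDNA of another strain, and here both lines had the C57BL/6J (B6) nuclear genome with mtDNA of C57BL/6J (mtDNAB6, named WT in the sample labels) or of NZB (mtDNANZB). Conventional CD4+ T cells (Tconv CD4+, CD4+ CD25-, labelled TE) were isolated on magnetic columns from the spleen, and most mice were 2 to 3 months old. They were profiled at rest or after 72 h with beads carrying antibodies to CD3 and CD28 plus IL-2, a standard way to stimulate T cells in culture. The comparisons rest on 23 libraries: 6 resting mtDNAB6, 6 activated mtDNAB6, 5 resting mtDNANZB and 6 activated mtDNANZB. No haplotype was paired with the NZB nuclear genome, and every difference between haplotypes is therefore a difference between 2 conplastic lines.

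Mammalian mtDNA is a small circle that is transcribed from both strands as long precursors, from which the tRNAs are cut out so that rRNAs and mRNAs are released. The rRNAs build the mitochondrial ribosome, and every mRNA codes for a subunit of the respiratory chain or of ATP synthase. Most of these mRNAs end in or next to the stop codon, carry a short poly(A) tail and have almost no 3' untranslated region. All proteins that transcribe, cut and protect these RNAs come from nuclear genes. T cells that leave rest are known to enlarge their mitochondrial network and copy mtDNA.

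RNA was read as UMI counts from the 3' end of polyadenylated RNA, where a unique molecular identifier (UMI) lets copies of a molecule be counted once. The 23 libraries held 641467 to 6449395 UMI counts, and the smallest was replicate 1 of activated mtDNANZB. The remaining library, replicate 2 of resting mtDNANZB, held 51409 UMI counts and was left out of the comparisons. The T cell genes Cd3e and Cd4 were present in all groups, with group medians of 268 to 334 CPM (counts scaled to library size, per 1e6) for Cd3e and 570 to 629 CPM for Cd4. Il2ra, the receptor chain that marks activation, had medians of 3.12 and 3.27 CPM at rest and of 77.1 and 103 CPM after activation. Summed over 8 listed activation genes, medians were 501 and 530 CPM at rest and 1502 and 1661 CPM after activation. Myc of this list was lower after activation, with medians of 117 and 121 CPM at rest and of 77.4 and 97.7 CPM after it.

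The 7 transcripts were a very small part of every library. They held 10047 UMI counts over the 23 libraries, between 160 and 1180 per library, which was 97.1% of all counts on the mitochondrial chromosome. Of the 37 mitochondrial genes in the table, 16 had a count and 21 had none. The 9 counted genes that are not among the 7 held 305 counts in all, with 79 each on the tRNA genes mt-Tt and mt-Tp, 48 on mt-Co1 and 40 on mt-Nd6. The mRNAs mt-Co2, mt-Atp8, mt-Atp6, mt-Co3, mt-Nd3 and mt-Nd4l, for subunits of complex IV, ATP synthase and complex I, had 0 counts in all 23 libraries. A library therefore gives a precise level for mt-Cytb, with 65 to 543 counts, and a coarse one for mt-Nd2 and mt-Nd5, with as few as 1 count.

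Where each transcript ends matters for a 3' count, so the last 30 bases of the 4 transcripts that passed a test below were read from the GRCm39 sequence of the mitochondrial chromosome, + strand. Capitals mark the annotated stop codon of mt-Nd1 and the lone T with which mt-Nd4 and mt-Cytb end. To this T the poly(A) tail adds the rest of a stop codon. The annotated mt-Nd1 ends at position 3707, while the tRNA gene mt-Ti starts at 3706 on the same strand. Where the released mt-Nd1 mRNA ends was not determined. The rRNA has no stop codon and is in lower case throughout.
mt-Rnr2: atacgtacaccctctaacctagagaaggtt
mt-Nd1: tttacagcgggagtaccaccatacataTAG
mt-Nd4: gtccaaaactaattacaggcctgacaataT
mt-Cytb: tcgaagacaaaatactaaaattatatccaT
These ends lie at chrM:2646-2675 (mt-Rnr2), chrM:3678-3707 (mt-Nd1), chrM:11515-11544 (mt-Nd4) and chrM:15259-15288 (mt-Cytb). The whole genes span chrM:1094-2675, chrM:2751-3707, chrM:10167-11544 and chrM:14145-15288 and are exonic over their full length. The other members lie at chrM:70-1024 (mt-Rnr1), chrM:3914-4951 (mt-Nd2) and chrM:11742-13565 (mt-Nd5), also on the + strand.

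The 6 mRNAs without a count were those with nearly all of their counted sequence also in the nuclear genome. Every 75-base word, the length of a read, in the last 1000 bases of each gene was looked up in the nuclear chromosomes of GRCm39. Exact nuclear copies were found for 100% of the words of mt-Co2, mt-Atp8, mt-Atp6, mt-Co3 and mt-Nd4l, for 98.9% of those of mt-Nd3 and for 51.4% of those of mt-Co1. Among the 7 members the share was 45.8% for mt-Nd4, 5.94% for mt-Nd2, 4.43% for mt-Rnr2, 3.13% for mt-Nd5 and 0% for mt-Rnr1, mt-Nd1 and mt-Cytb. The long copy lies at chr1:24650616-24655269 and matches chrM:6390-11042 at 99.936% identity, so that it runs into mt-Nd4 from its 5' side. A short copy at chr2:69185882-69186010 matches chrM:11514-11642 at 100% identity and covers the 3' end of mt-Nd4 printed above. Over all aligned copies, exact or not, lay 39 annotated pseudogenes or short genes, of which 8 had any count. Among them Gm71269, Gm75808 and Gm63946 were not among the genes counted. How reads with more than 1 match were counted is not given in the sources used here, and its part in the missing counts was not tested.

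**Figure D1:**
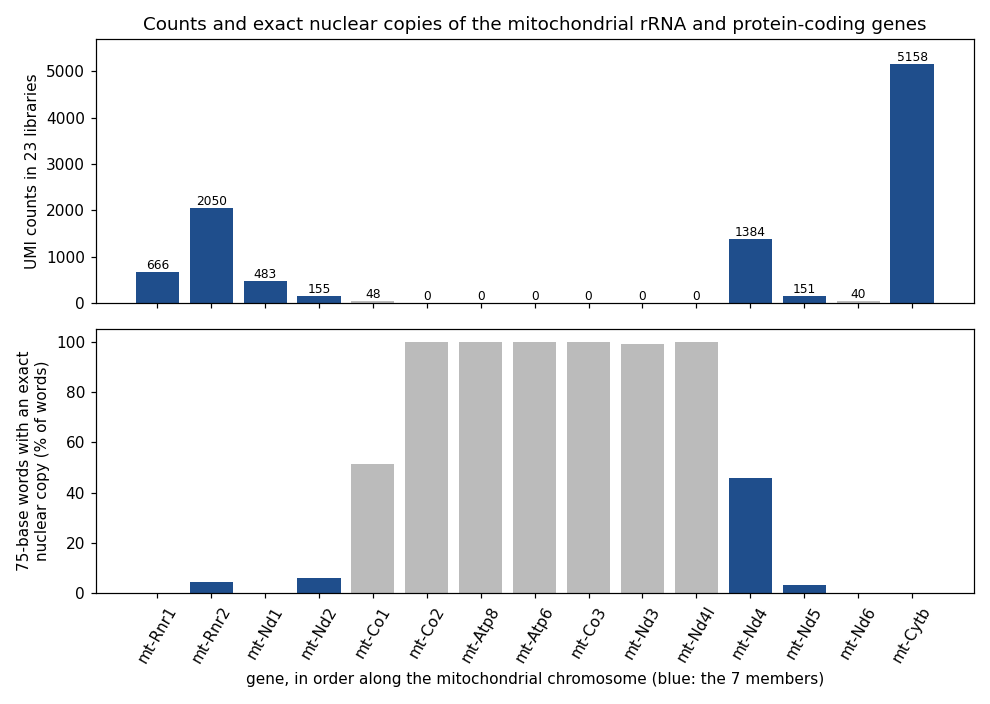
UMI counts summed over 23 libraries (upper bars) and percent of 75-base words with an exact nuclear copy in GRCm39 (lower bars) for the mitochondrial rRNA and protein-coding genes, in their order on the chromosome, with the 7 members in blue. The 6 genes with 0 counts are those at 98.9% or 100%, and mt-Cytb, at 0%, has 5158 counts.

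Levels of different transcripts were compared per kilobase of counted sequence (CPM per kb). The counted sequence was 955 to 1000 bases in all members, so this scaling changed little. Capture and alignment may differ between transcripts, as with the nuclear copies of 45.8% of mt-Nd4 words and 0% of mt-Cytb words. The order is therefore one of counts, and RNA amounts were not compared. In resting mtDNAB6 cells the order of medians was mt-Cytb (73.7), mt-Rnr2 (38.3), mt-Nd4 (33.5), mt-Nd1 (11.7), mt-Rnr1 (11.3), mt-Nd2 (3.10) and mt-Nd5 (2.65). Libraries overlapped between all neighbours in this order except 2 pairs: mt-Nd4 did not fall below 29.4 while mt-Nd1 did not exceed 15.3, and mt-Rnr1 did not fall below 7.96 while mt-Nd2 did not exceed 5.41. In resting mtDNANZB cells the order was mt-Cytb (136), mt-Rnr2 (42.7), mt-Rnr1 (11.6), mt-Nd4 (10.3), mt-Nd1 (7.15), mt-Nd5 (2.45) and mt-Nd2 (1.63). Thus mt-Nd4 stood beside mt-Rnr2 in resting mtDNAB6 cells and beside mt-Rnr1 in resting mtDNANZB cells, where its libraries spanned 6.54 to 13.8 and those of mt-Rnr1 7.96 to 14.5. After activation mt-Nd4 was second in mtDNAB6 cells, with a median of 20.1 CPM per kb, and stood below mt-Nd1 in mtDNANZB cells, with 2.31.

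The first question was whether the haplotypes differed at rest. The sharpest contrast was in mt-Nd4, the mRNA of a membrane-arm subunit of complex I that pumps protons. Its level was 29.4 CPM in the lowest resting mtDNAB6 library, 33.5 CPM at the median and 40.9 CPM in the highest. The 5 resting mtDNANZB libraries gave 10.3, 9.45, 10.9, 13.8 and 6.54 CPM. The groups did not overlap, and every mtDNANZB library was below every mtDNAB6 library. The log2 fold change was -1.76 (SE 0.36, edgeR's quasi-likelihood test, adjusted p = 0.0217, n = 6 and 5).

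It was the only 1 of 6 tested members that passed the test at rest, where 3.64% of all 10702 tested genes did, 1.12% as lower and 2.52% as higher in mtDNANZB. The same order held within libraries of like sequencing depth per molecule. In the set with about 2.7 to 2.8 reads per UMI, mt-Nd4 was 40.9 and 33.6 CPM in 2 mtDNAB6 libraries and 10.9, 13.8 and 6.54 CPM in 3 mtDNANZB libraries. With these sets as a term in the edgeR fit the log2 fold change of mt-Nd4 was -1.78 and the adjusted p 0.0598. The call was also lost without replicate 1 or 4 of resting mtDNAB6 (adjusted p 0.0550 and 0.0547) or replicate 5 of resting mtDNANZB (0.0768), with log2 fold changes of -1.81, -1.73 and -1.88 for mt-Nd4.

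For mt-Cytb, the other abundant mRNA, the order was the opposite. The resting mtDNAB6 libraries ran from 48.6 to 96.4 CPM with a median of 73.7 CPM, and the mtDNANZB libraries gave 106, 177, 137, 136 and 96.9 CPM. Every mtDNANZB library was above every mtDNAB6 library, though the closest were 96.9 and 96.4 CPM. The log2 fold change was 0.79 (SE 0.28) with an edgeR adjusted p of 0.0982, which missed the threshold (unadjusted p = 0.00891).

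The other members did not pass the test between haplotypes at rest. The rRNAs were close in level, with medians of 10.8 and 11.1 CPM for mt-Rnr1 and of 38.3 and 42.7 CPM for mt-Rnr2 in mtDNAB6 and mtDNANZB cells. Their log2 fold changes were 0.03 (SE 0.34) for mt-Rnr1 and 0.18 (SE 0.32) for mt-Rnr2 (edgeR adjusted p 0.978 and 0.804). For mt-Nd1, a membrane-arm subunit of complex I next to the quinone site, medians were 11.2 and 6.84 CPM and the log2 fold change was -0.69 (SE 0.38, edgeR adjusted p = 0.295), with overlapping libraries. The antiporter-like subunit mRNA mt-Nd5 differed by -0.07 (SE 0.51, edgeR adjusted p = 0.963). Because mt-Nd2 failed the count filter, it was tested only in fits that kept it, and without a filter it gave -0.97 (SE 0.45, edgeR adjusted p = 0.385).

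After activation the difference in mt-Nd4 was again the largest among the members. Activated mtDNAB6 libraries ran from 16.8 to 28.0 CPM with a median of 20.1 CPM, and activated mtDNANZB libraries from 1.22 to 24.9 CPM with a median of 2.31 CPM. Replicates 2 to 6 of activated mtDNANZB, at 2.26, 2.27, 4.90, 1.22 and 2.36 CPM, lay below every mtDNAB6 library, and replicate 1, at 24.9 CPM, lay among them. In UMI counts replicates 2 to 6 had 7, 7, 11, 4 and 16 counts of mt-Nd4, and the 6 mtDNAB6 libraries had 54 to 95. The log2 fold change was -2.42 (SE 0.40, edgeR adjusted p = 0.0294, n = 6 and 6), and mt-Nd4 was the 1 gene of 10702 that passed this comparison (0.00934%).

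The call of mt-Nd4 after activation depended on which libraries were included. Without replicate 1 of activated mtDNANZB the log2 fold change was -3.02 (SE 0.24) and the edgeR adjusted p 6.8e-08. Leaving out 1 library at a time kept the value between -3.02 and -2.18, but the adjusted p was 0.0526 to 0.192 in 15 of the 23 cases: replicates 1, 2, 3, 4 and 6 of resting mtDNAB6, 1, 3, 4, 5 and 6 of activated mtDNAB6, and 2, 3, 4, 5 and 6 of activated mtDNANZB. In the set of libraries with the fewest reads per UMI, mt-Nd4 was 16.8 to 28.0 CPM in 5 mtDNAB6 libraries and 1.22 and 2.36 CPM in 2 mtDNANZB libraries. With the sets as a term the log2 fold change of mt-Nd4 was -2.71 and the edgeR adjusted p 0.0192. DESeq2 gave -2.19 for mt-Nd4 (adjusted p = 0.000689). With 21 libraries, also without replicate 6 of both mtDNANZB groups, it was -2.25 and missed the threshold (edgeR adjusted p = 0.120). The call was also lost in the fit of only the 2 groups compared and with a replicate block by title number.

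No other member passed between haplotypes after activation. For mt-Cytb, libraries overlapped, with 17.5 to 53.6 CPM in mtDNAB6 and 30.2 to 95.1 CPM in mtDNANZB cells, and the log2 fold change was 0.48 (SE 0.28, edgeR adjusted p = 1.00). The remaining values were 0.24 for mt-Rnr1 (SE 0.35), -0.15 for mt-Rnr2 (SE 0.35), 0.42 for mt-Nd1 (SE 0.42) and -0.96 for mt-Nd5 (SE 0.58). Leaving out replicate 1 of activated mtDNANZB turned the direction of mt-Rnr1 (-0.14) and mt-Nd1 (-0.02).

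**Figure D2:**
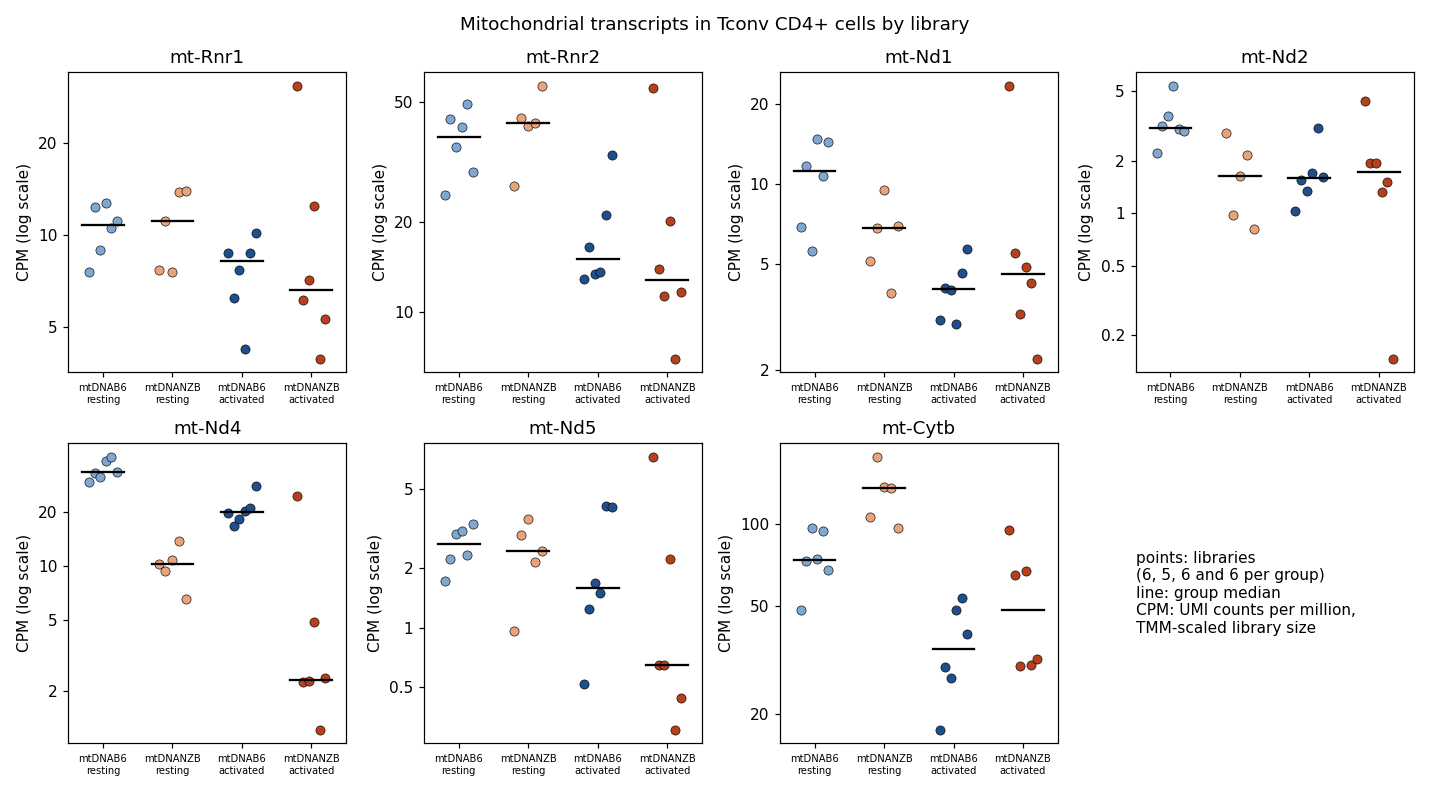
CPM of the 7 members in each library on log axes, with 1 point per library and a line at the group median, for resting and activated cells of both haplotypes. For mt-Nd4 the resting groups are separate (6.54 to 13.8 against 29.4 to 40.9 CPM), and replicate 1 of activated mtDNANZB, at 24.9 CPM, stands above the rest of its group.

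The make-up of the mitochondrial counts, which does not depend on library scaling, showed the same contrast. Of the counts on the 7 members, mt-Nd4 took 17.2 to 24.3% in resting mtDNAB6, 18.1 to 31.2% in activated mtDNAB6, 3.55 to 6.45% in resting mtDNANZB and 2.37 to 10.3% in activated mtDNANZB libraries. The highest mtDNANZB library, replicate 1 of the activated group, was thus below the lowest mtDNAB6 library. The share of mt-Cytb was 39.0 to 52.2% in resting mtDNAB6 and 52.5 to 70.1% in resting mtDNANZB libraries. After activation its ranges overlapped (27.5 to 52.2% and 39.4 to 68.1%).

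The number of mt-Nd4 counts per mt-Cytb count puts both into 1 value. It joins the member that was lower with the member that was higher in resting mtDNANZB cells, from the same counts. Its separation of the haplotypes is therefore no separate support. Its medians were 0.476 at rest and 0.621 after activation in mtDNAB6 cells, and 0.0792 and 0.0735 in mtDNANZB cells. Libraries spanned 0.329 to 1.13 over both mtDNAB6 groups and 0.0348 to 0.262 over both mtDNANZB groups, with no overlap. Against mt-Rnr2, which did not pass between haplotypes over the 23 libraries, mt-Nd4 had medians of 0.916 and 1.20 counts in mtDNAB6 cells and of 0.261 and 0.201 in mtDNANZB cells. These ratios are described without a test.

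**Figure D3:**
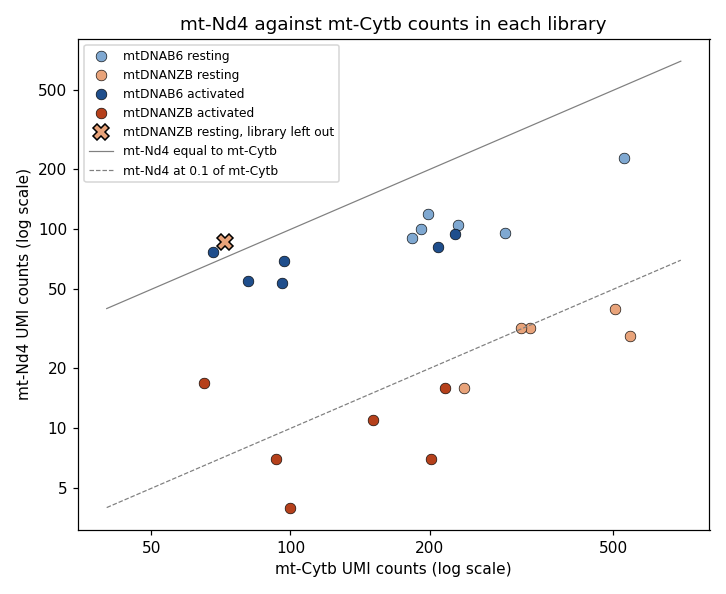
UMI counts of mt-Nd4 against UMI counts of mt-Cytb, 1 point per library on log axes, with lines where mt-Nd4 equals mt-Cytb or 0.1 of it and a cross for the mtDNANZB library left out of the comparisons. All 23 compared libraries separate by haplotype (ratios of 0.329 to 1.13 against 0.0348 to 0.262), and the cross, at 1.19, lies above both ranges.

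The library that was left out followed the haplotype difference in some measures and not in others. Replicate 2 of resting mtDNANZB had 86 counts of mt-Nd4, 72 of mt-Cytb and 364 of mt-Rnr2 among its 51409 UMI counts. Its ratio of mt-Nd4 to mt-Cytb was 1.19, against 0.0534 to 0.101 in the other 5 libraries of its group, and above every mtDNAB6 library. Its ratio of mt-Nd4 to mt-Rnr2 was 0.236, within the 0.115 to 0.390 of those 5 libraries and below the 0.755 to 1.20 of resting mtDNAB6 libraries. Its share of mt-Nd4 among the members' counts was 12.3%, above the other mtDNANZB libraries and below the lowest mtDNAB6 library. This share and the ratio to mt-Rnr2 have mt-Rnr2 in the denominator. Both rRNAs made up 64.6% of its members' counts, against 21.4 to 38.4% in those 5 libraries. Its mt-Cytb per mt-Rnr2 count was 0.198, against 1.71 to 4.02. With this library in the edgeR fit, the log2 fold change of mt-Nd4 at rest turned to 0.81 (adjusted p = 0.747).

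The difference in mt-Nd4 is a difference in counts between mtDNA haplotypes whose sequences differ. Reads of both were aligned to GRCm39, which carries the B6 mtDNA, with mismatches allowed in at most 0.05 of a read's length, and the NZB mtDNA sequence was not used here. A different RNA level and a different capture or alignment of NZB reads cannot be told apart in these counts. Summed RNA of other cell types ranged widely at rest in both haplotypes, with medians of 2500 and 589 CPM for 7 granulocyte genes and of 1951 and 1509 CPM for 6 monocyte and macrophage genes in mtDNAB6 and mtDNANZB cells. The medians of 7 erythroid genes were 1370 and 227 CPM and those of 6 B cell genes 10822 and 9409 CPM. The part of this RNA in the haplotype difference was not tested.

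The next question was how the members changed with activation. CPM and shares are relative to the counts of each library, and RNA per cell was not measured. A fall below is therefore a fall relative to the rest of the library, and the amount per cell was not tested. As a share of all UMI counts, the 7 members together held 0.0118 to 0.0216% in resting mtDNAB6 libraries (median 0.0170%) and 0.00669 to 0.0124% in activated ones (median 0.00876%). In mtDNANZB cells the share was 0.0155 to 0.0251% at rest (median 0.0188%) and 0.00478 to 0.0257% after activation (median 0.00772%). Only 2 activated mtDNAB6 libraries, at 0.0121 and 0.0124%, reached the resting range of their haplotype. Among activated mtDNANZB libraries, replicate 1 had 0.0257% (95% Wilson interval 0.0221 to 0.0300%), and the other 5 had at most 0.0118%.

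In mtDNAB6 cells 3 of 6 tested members fell with activation (mt-Rnr2, mt-Nd1 and mt-Cytb) and none rose, where 48.4% of all tested genes passed, 23.3% as falling and 25.1% as rising. The median log2 fold change of the 6 members was -0.89, against 0.01 over all tested genes. The members are not independent of each other, since they are cut from shared precursors. Levels of mt-Cytb were 48.6 to 96.4 CPM at rest and 17.5 to 53.6 CPM after activation (medians 73.7 and 34.6 CPM), and the log2 fold change was -1.07 (SE 0.27, edgeR adjusted p = 0.0025). Only the lowest resting library overlapped with the activated group.

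The large rRNA mt-Rnr2 went from 24.5 to 49.2 CPM at rest (median 38.3 CPM) to 12.9 to 33.3 CPM (median 15.1 CPM), a log2 fold change of -1.03 (SE 0.32, edgeR adjusted p = 0.0103). Of the activated libraries only replicate 6, at 33.3 CPM, lay inside the resting range. With label numbers shared by resting and activated libraries as a block in the fit, mt-Rnr2 missed the threshold. The complex I mRNA mt-Nd1 went from 5.61 to 14.7 CPM (median 11.2 CPM) to 2.98 to 5.68 CPM (median 4.03 CPM), with a log2 fold change of -1.39 (SE 0.38, edgeR adjusted p = 0.00374). Its groups overlapped only between 5.61 and 5.68 CPM.

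For mt-Nd4 the resting and activated mtDNAB6 groups did not overlap (29.4 to 40.9 against 16.8 to 28.0 CPM), and the log2 fold change of -0.74 (SE 0.31) had an edgeR adjusted p of 0.0531. Without replicate 1 of activated mtDNANZB, which shares the fit, scaling and filter with these groups, the log2 fold change of mt-Nd4 was -0.78 and the adjusted p 0.000805. The small rRNA mt-Rnr1 (10.8 against 8.21 CPM at the medians, -0.47, SE 0.33, edgeR adjusted p = 0.251) and mt-Nd5 (-0.26, SE 0.49, adjusted p = 0.677) did not pass. Without the count filter mt-Nd2 gave -0.95 (SE 0.42, edgeR adjusted p = 0.101), with medians of 3.10 and 1.59 CPM. It passed with 21 libraries (-0.96, edgeR adjusted p = 0.0136) and in the second count table (-1.31, adjusted p = 0.0445).

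In mtDNANZB cells 3 of 6 tested members also fell with activation, namely mt-Rnr2, mt-Nd4 and mt-Cytb, and none rose, where 54.8% of all tested genes passed, 27.7% as falling and 27.1% as rising. The median over the 6 members was -1.26, against -0.03 over all tested genes. For mt-Cytb the resting libraries gave 106, 177, 137, 136 and 96.9 CPM and the activated ones 30.2 to 95.1 CPM (median 48.4 CPM), which did not overlap. The log2 fold change was -1.38 (SE 0.29, edgeR adjusted p = 0.000293). It was the member with the smallest adjusted p in both haplotypes. With label numbers as a block in the fit, mt-Cytb alone of the 6 members was called in mtDNANZB cells.

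The resting mtDNANZB libraries had 26.4, 44.3, 41.6, 42.7 and 56.8 CPM of mt-Rnr2 and the activated ones 7.00 to 55.6 CPM (median 12.8 CPM). Replicate 1 of the activated group made the 55.6 CPM, and the next highest had 20.04 CPM. The log2 fold change was -1.36 (SE 0.35, edgeR adjusted p = 0.00227). For mt-Nd4, with 6.54 to 13.8 CPM at rest and 1.22 to 24.9 CPM after activation, it was -1.40 (SE 0.43, edgeR adjusted p = 0.00791), and 5 of 6 activated libraries were below every resting one.

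Replicate 1 of activated mtDNANZB had the highest level of its group for every one of the 7 members, from 4.39 CPM for mt-Nd2 to 95.1 CPM for mt-Cytb. Without it mt-Nd5 was not tested and all 5 tested members fell in mtDNANZB cells, where 3080 of all 10710 tested genes fell. The log2 fold changes were then -0.69 for mt-Rnr1 (edgeR adjusted p = 0.0381), -1.78 for mt-Rnr2, -0.78 for mt-Nd1 (adjusted p = 0.0382), -2.06 for mt-Nd4 and -1.60 for mt-Cytb. With the library, mt-Rnr1 had -0.26 (SE 0.36, edgeR adjusted p = 0.558), mt-Nd1 -0.28 (SE 0.42, adjusted p = 0.593) and mt-Nd5 -1.15 (SE 0.60, adjusted p = 0.108).

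The proportion of the 2 rRNAs was lower at the median after activation in both haplotypes, described here without a test. There were 2.63 to 4.66 counts of mt-Rnr2 per count of mt-Rnr1 in resting and 1.47 to 3.28 in activated mtDNAB6 libraries (medians 3.40 and 2.53), which overlapped. In mtDNANZB cells the ratio was 3.09 to 5.46 at rest and 1.59 to 2.26 after activation (medians 4.00 and 1.79), which did not overlap. Both rRNAs together made up 23.97 to 31.3% of the members' counts in resting mtDNAB6 and 19.3 to 35.5% in activated mtDNAB6 libraries, with overlapping ranges. The mtDNANZB ranges of this share were 21.4 to 38.4% at rest and 21.0 to 35.8% after activation.

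Whether the response to activation differed between haplotypes was tested by the interaction term. For 0 of 6 members, and for 0 of all 10702 genes, did edgeR give an adjusted p of at most 0.05 (0% of genes), while 1618 genes had an unadjusted p under 0.05 and DESeq2 passed 1 gene, which was no member. The largest differences of responses were 1.11 for mt-Nd1 (SE 0.57, edgeR adjusted p = 0.349), -0.89 for mt-Nd5 (SE 0.77, adjusted p = 0.616) and -0.66 for mt-Nd4 (SE 0.53, adjusted p = 0.577). Hence mt-Nd1, which fell in mtDNAB6 and not in mtDNANZB cells by the threshold, was not shown to respond differently. Without replicate 1 of activated mtDNANZB the difference was 0.65 for mt-Nd1 and -1.28 for mt-Nd4 (edgeR adjusted p 0.467 and 0.216).

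**Figure D4:**
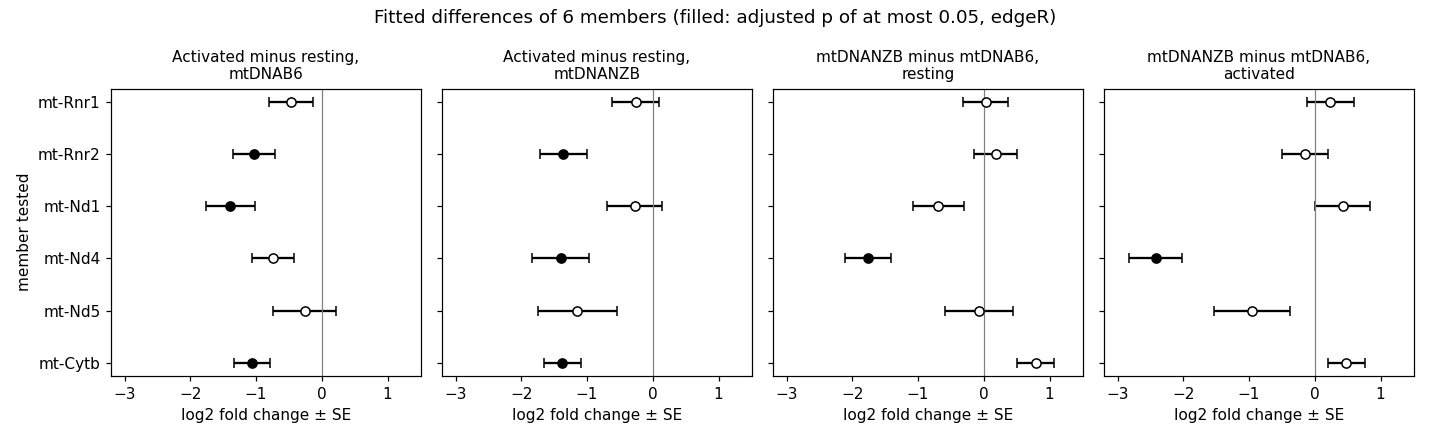
Log2 fold change with its standard error (bars) of the 6 tested members in 4 comparisons, with filled points at an adjusted p of at most 0.05 in edgeR's quasi-likelihood test. Between haplotypes only mt-Nd4 is filled (-1.76 at rest and -2.42 after activation), and with activation mt-Rnr2 and mt-Cytb are filled in both haplotypes.

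Several measures moved with activation beside the members. Summed RNA of 4 of the 7 lists for other blood cells was lower at the median in activated cells, with medians at rest and after activation of 10822 and 3762 CPM for 6 B cell genes, 1951 and 202 CPM for 6 monocyte and macrophage genes, 2500 and 17.1 CPM for 7 granulocyte genes and 1370 and 26.6 CPM for 7 erythroid genes in mtDNAB6 cells. In mtDNANZB cells the medians were 9409 and 2691, 1509 and 219, 589 and 51.9, and 227 and 33.7 CPM for these lists. The other 3 lists were higher after activation, with medians in mtDNAB6 cells of 67.3 and 280 CPM for 2 CD8 T cell genes, 151 and 246 CPM for 3 NK cell genes and 14.3 and 141 CPM for 3 platelet genes. In mtDNANZB cells these medians were 63.3 and 166, 151 and 182, and 13.3 and 99.1 CPM. Of the NK cell list only Nkg7 was higher (medians 143 and 244 CPM in mtDNAB6, 140 and 181 CPM in mtDNANZB cells), while Klrb1c went from 7.97 to 1.97 and from 6.52 to 0.943 CPM and the defining marker Ncr1 had a median of 0 after activation in both. Every gene of the 7 lists had a count in the 23 libraries. Their part in the fall of the members was not tested, and fewer cells of a type and less RNA per cell cannot be told apart in bulk RNA.

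Reads per UMI moved with activation as well. None of the 6 resting mtDNAB6 libraries was in the set with the fewest reads per UMI, which held 5 of the 6 activated ones. With the 3 sets as a term, 0 of 6 members passed in mtDNAB6 cells, with edgeR adjusted p of 0.211 for mt-Rnr2, 0.125 for mt-Nd1 and 0.0871 for mt-Cytb, and 3 passed in mtDNANZB cells. Of all 10702 genes, 3799 and 5593 passed in that fit. The log2 fold changes in mtDNAB6 cells were then -0.66 for mt-Rnr2, -0.95 for mt-Nd1 and -0.76 for mt-Cytb. In the middle set, the 1 activated mtDNAB6 library had 21.0 CPM of mt-Rnr2, 4.62 of mt-Nd1 and 53.6 of mt-Cytb, and 4 resting ones had 24.5 to 44.0, 5.61 to 14.7 and 48.6 to 96.4 CPM.

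The nuclear genes listed for replication and transcription of mtDNA and for processing of its RNA did not move in 1 direction. Of the 36 listed genes, 30 were tested. With activation 5 rose and 3 fell in mtDNAB6 cells and 8 rose and 5 fell in mtDNANZB cells, where 48.4 and 54.8% of all tested genes passed. Their median log2 fold changes of 0.03 and 0.05 stood beside 0.01 and -0.03 over all genes. The list includes replication genes, of which the DNA polymerase subunits Polg (-0.66 and -0.53) and Polg2 (-0.94 and -1.39) were among the falls and Ssbp1 (0.34 and 0.52) among the rises in both haplotypes. Tfam, which packages mtDNA and starts its transcription, rose by 0.49 and 0.65 (log2, edgeR adjusted p 0.0147 and 0.00287). The mitochondrial RNA polymerase Polrmt had -0.25 and -0.18 (adjusted p 0.1004 and 0.249).

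Other factors of this list moved in 1 haplotype by the threshold, and none of the 30 passed the interaction test. The elongation factor Tefm had 0.27 in mtDNAB6 cells and rose by 1.01 in mtDNANZB cells (edgeR adjusted p 0.253 and 0.000352). The mRNA-stabilising factor Lrpprc had 0.14 and rose by 0.53 (adjusted p 0.458 and 0.00893), and the initiation factor Tfb2m had 0.20 and fell by 1.54 (0.742 and 0.0126). Grsf1, which binds mitochondrial RNA in granules, rose by 0.54 in mtDNAB6 cells and had 0.20 in mtDNANZB cells (0.0106 and 0.358). The poly(A) polymerase Mtpap had -0.20 and -0.17 (0.0582 and 0.197), and Slirp, the partner of Lrpprc, had 73 counts in all and was not tested. Between haplotypes none of the 30 genes passed, at rest or after activation.

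Among 7727 nuclear genes with a mean of at least 10 CPM, those most like the members were found by Pearson's r between log2(CPM + 1) of the gene and of the summed members over the 23 libraries. They were Zfp1 (0.890), Il6ra (0.888), Nufip2 (0.877), Rab11fip4 (0.867) and Srrm2 (0.860). Without replicate 1 of activated mtDNANZB the values were 0.881, 0.908, 0.879, 0.890 and 0.869. The libraries fall into resting and activated ones and share their scaling, and these correlations are a description only.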

How the data were processed

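Conventional CD4+ T cell RNA of 24 libraries in 4 groups, named by the sample labels, was analysed. According to the study's methods, the authors trimmed 75-base reads with cutadapt and dropped reads under 30 bases. The rest were aligned with STAR to 1000-base 3' UTR regions of GRCm39. UMI duplicates within a gene were flagged, and genes were counted with htseq-count. The UMI counts were then corrected for saturation. The values used are the deposited corrected UMI counts, which the authors did not scale to library size. A second deposited table holds larger counts, was taken as reads before deduplication (its making is not given in the sources used here), and gave reads per UMI and an alternative. Divided at the 2 widest gaps, reads per UMI (1.88 to 2.80) formed 3 sets of libraries, made from the data. In the larger table, a single column (1 in all) fitted none of the samples and was ignored. The labels and the methods differ in the RNA input and kit. Counting by strand is not given in the sources used here, so reads of mt-Nd6 and mt-Nd5, which overlap on opposite strands, may be mixed.

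Replicate 2 of resting mtDNANZB was left out, with 51409 UMI counts. Counts were scaled by TMM, filtered by filterByExpr and fitted over 4 groups and 23 libraries with edgeR 4.0.16 (quasi-likelihood test, R 4.3.3, limma 3.58.1), with Benjamini-Hochberg adjustment over 10702 genes and calls at an adjusted p of at most 0.05, with no fold cut-off. Of the 7 members, 6 passed the filter. The standard error is the size of the log2 fold change divided by the square root of F. CPM values use the TMM-scaled library size. Nuclear copies were found with blastn 2.17.0 (E-value 1e-10) and by exact words. Fits were tested on simulated counts. Wilson intervals at 95% cover counting error only. No 2 libraries of a group agreed within sampling noise (lowest chi-square over its degrees of freedom 2.77), so none was treated as deposited again, and each was counted as a replicate. Labels do not say that replicates are separate animals, so p-values measure the spread between these libraries.

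All members are named, with counts for a list of nuclear genes, 8 of its genes by name, and the 5 most similar genes. Polg, Polg2 and Ssbp1 of the list are named outside this rule, after their values were seen. Members, lists and tests were chosen with earlier results of these data known. Alternatives were all 24 libraries, 21 libraries (also without replicate 6 of both mtDNANZB groups), median-of-ratios scaling, scaling without mitochondrial genes, DESeq2 1.42.0, no filter or a stricter one (10 counts in 10 libraries), the second table, fits of the 2 groups compared, replicate blocks, library sets as a term, a log2 fold cut-off of 1, and leaving out each library.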

Additional observations from a re-analysis of the deposited data

Results flagged for a closer look

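Replicate 1 of activated mtDNANZB stood apart from the other 5 libraries of its group in several members. By Dixon's test at the 95% level it was a far value in mt-Rnr1 (30.7 CPM), mt-Rnr2 (55.6 CPM), mt-Nd1 (23.4 CPM), mt-Nd4 (24.9 CPM) and mt-Nd5 (7.31 CPM), in the share of UMI counts on the 7 members (0.0257%) and in the count of mt-Nd4 per count of mt-Cytb (0.262). It had 641467 UMI counts, the fewest of the 23 libraries. The remaining far value was mt-Nd2 in replicate 5 of activated mtDNAB6 (3.08 CPM). In all, 8 of 44 sets of values held a far value, where chance gives about 1 in 20. The values of 1 library are not independent of each other.

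Replicate 2 of resting mtDNANZB, which entered no comparison, had 1.36% of its 51409 UMI counts on the 7 members, 52.8 times the highest share in the other libraries. Its 7 members were 6.69 (mt-Cytb) to 111 (mt-Nd1) times the highest other resting mtDNANZB library on the CPM scale. Its 1.19 counts of mt-Nd4 per count of mt-Cytb lay above every other library of either haplotype.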

How the results depend on the processing

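The fall of mt-Cytb with activation in mtDNANZB cells passed in 35 of 35 alternatives and that of mt-Rnr2 in 34 of 35, and mt-Nd4 passed between haplotypes in 29 of 34 alternatives at rest and 15 of 34 after activation. It stayed lower in mtDNANZB cells except at rest with all 24 libraries (0.81). The causes of the changes given here were not tested. With all 24 libraries 1 member was called with activation in mtDNAB6 and 5 in mtDNANZB cells, 0 genes and 0 members passed between haplotypes after activation, mt-Nd1 and mt-Nd5 turned to 2.40 and 0.70 at rest, where mt-Rnr2 was called higher (4.29, adjusted p = 0.0389) in place of mt-Nd4, and the interaction turned to -3.01 for mt-Rnr1 and -1.97 for mt-Nd1. With 21 libraries 5 members were called with activation in mtDNAB6 cells, 662 genes passed at rest, 0 genes and 0 members passed after activation, 113 genes passed the interaction, and mt-Rnr1 turned to -0.044 at rest. Fits of only the 2 groups compared called 5 members with activation in mtDNAB6 cells, 2 in mtDNANZB cells (mt-Nd4 missed the threshold, adjusted p = 0.0823), 1 gene at rest (mt-Nd4), and 0 genes and 0 members after activation. With library sets as a term, mt-Rnr1 and mt-Nd5 turned to 0.0021 and 0.47 with activation in mtDNAB6 cells, where 0 members were called, 7 genes and 0 members passed at rest, mt-Nd5 turned to 0.022 at rest, and mt-Rnr1 to -0.12 between activated haplotypes and -0.15 in the interaction. The second count table passed 215 genes at rest and turned mt-Nd1 to 0.22 with activation in mtDNANZB cells and mt-Nd5 to 0.038 at rest. A fold cut-off left 1910 and 2530 genes with activation in mtDNAB6 and mtDNANZB cells and 112 at rest. DESeq2 passed 1 gene of the interaction.

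Resting and activated libraries share label numbers in 5 mtDNAB6 and 4 mtDNANZB pairs, not said to be animals. Their deviations correlated by -0.07 to 0.24 and by -0.15 to 0.01, so the numbers were not taken as pairs. With a replicate block by label number, 1 member (mt-Cytb) was called with activation in mtDNANZB cells, where mt-Rnr1 turned to 0.10, and mt-Rnr2 missed the threshold in mtDNAB6 cells (adjusted p = 0.053). A replicate block by title number passed 68 genes at rest and 0 genes and 0 members after activation, and turned mt-Rnr1 to -0.0046 at rest.

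Leaving out 1 library at a time gave 3 to 5 called members with activation in mtDNANZB cells, 1 gene (without replicate 5 of resting mtDNANZB) to 745 genes (without replicate 3) and 0 to 1 member at rest, 0 to 1 gene and 0 to 1 member after activation, and 0 to 1 gene in the interaction. Between haplotypes at rest it gave -0.078 to 0.14 for mt-Rnr1 and -0.27 to 0.13 for mt-Nd5. After activation it gave -0.14 to 0.43 for mt-Rnr1, -0.52 to 0.10 for mt-Rnr2 and -0.024 to 0.69 for mt-Nd1, and in the interaction -0.18 to 0.39 for mt-Rnr1. The median share of counts on the members moved by less than 1 SD in 39 of 39 alternatives, but in activated mtDNANZB cells the SD (0.00797%) exceeds the median (0.00772%), which ran from 0.00567 to 0.00977% with 1 library left out. With as few as 1 to 4 counts a library, mt-Nd2, mt-Nd5 and mt-Nd4 in activated mtDNANZB cells are limited by counting error.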

Other observations

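Some nuclear copies of mtDNA had counts of their own. The pseudogene Gm13340, at chr2:22478115-22479659 in GRCm39, lies over a copy of chrM:4441-7699 with 97.362% identity, which covers the end of mt-Nd2 and all of mt-Co1 and mt-Co2. It had 0 counts over the 12 mtDNAB6 libraries, 11 counts over the 5 resting mtDNANZB libraries and 3 counts over the 6 activated ones. It was too low to be tested and was singled out after its values were seen. The other pseudogenes and short genes among the 39 over aligned copies had at most 4 counts each over the 23 libraries.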
